A study of Sus scrofa with 6 samples.

Results

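Kinetochore and sister chromatid cohesion genes encode the protein layers that join chromosomes to spindle microtubules, and the rings and regulators that hold sister chromatids together until anaphase. Members were the rows of the deposited expression table annotated with the cellular component term condensed chromosome kinetochore or the biological process term sister chromatid cohesion, without nucleoporin genes left out by name. This gave 111 of 18007 rows, of which 57 carry the kinetochore term only, 31 the cohesion term only and 23 both. By name, 6 nucleoporin rows were left out. A row that the table lists by identifier only, and describes as nucleoporin SEH1, has no such name and was kept under the symbol SEH1L.

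RNA of 3 porcine embryonic fibroblast (PEF) lines and of the 3 induced pluripotent stem cell (piPSC) lines made from them was sequenced, and the comparison asks how expression differs between the cells before and after reprogramming. PEF5, PEF7 and PEF8 came from ear tips at embryonic day 90 of a cross of Longwhite boar (Large White in the study's text) with Meishan sow, and piPSC5, piPSC7 and piPSC8 each derive from the PEF line that shares their number. The piPSC lines carry lentiviral, doxycycline-inducible Oct4, Sox2, Klf4 and cMyc (OSKM) with the M2rtTA activator, and were expanded from picked colonies on mouse embryonic fibroblast feeder cells. Each line was read as 1 library, so the 3 lines of a group are its replicates. Whether feeder cell RNA contributed fragments cannot be read from a table of values per gene.

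Values are FPKM, fragment counts divided by gene length and library total, a scale that allows levels of different genes to be compared. Depth was 17836510, 16713472 and 15146576 fragments for PEF5, PEF7 and PEF8, and 15050204, 11892011 and 11010629 for piPSC5, piPSC7 and piPSC8. The 111 members together held 0.491%, 0.398% and 0.426% of these fragments in PEF5, PEF7 and PEF8, and 0.832%, 0.781% and 0.877% in piPSC5, piPSC7 and piPSC8.

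The labels were checked against marker genes. Of 10 fibroblast markers, all 10 were called lower in piPSCs, and their summed FPKM was 4492, 6456 and 5126 in PEF5, PEF7 and PEF8 against 223, 131 and 159 in piPSC5, piPSC7 and piPSC8. Their most abundant gene was COL1A2. Of 10 pluripotency markers, 7 had a row under their symbol, and their summed FPKM was 0.342, 0.167 and 0.232 in PEFs and 6.53, 5.16 and 9.28 in piPSCs. LIN28B was the most abundant of them. Limma called 0 of the 3 that were tested, 2 had an unadjusted p under 0.05, and voom called 2. ZFP42 was at 0 in all 3, and NANOG was at 0 in piPSC5 and piPSC8 and at 0.0919 FPKM in piPSC7. SOX2 had 3.01 and 2.49 FPKM in piPSC5 and piPSC7 and 0.129 in piPSC8. POU5F1, LIN28A and DPPA4 were not analysed here.

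The study states that the PEF lines were male, and the labels give no sex. DDX3Y, on chromosome Y, had 3439 fragments in PEF8 and 4207 in piPSC8, and 0 in the libraries of lines 5 and 7. Counts of called members without line 8 are given for all members and for some role groups, and not for annotation terms. Among markers of other cells, 1 of 2 tested blood markers (CD14) and 1 of 3 tested cartilage markers (SOX9) were called lower in piPSCs. Limma called 0 of the 1 tested epithelial, 1 tested endothelial and 1 tested skeletal muscle marker, with 0 of them at an unadjusted p under 0.05 and 0 called by voom. DES, a muscle intermediate filament, had 14.2 FPKM in piPSC7 against 0.165 in piPSC5 and 2.51 in piPSC8.

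In each mitosis, the centromeric histone variant CENP-A marks where a kinetochore forms, an inner layer of centromere proteins binds it, and an outer layer grips microtubules. The spindle checkpoint delays anaphase while kinetochores lack microtubules, and cohesin rings, loaded long before, are released or cleaved as chromatids part. Many of these genes are transcribed late in the cell cycle, so their RNA per culture is known to depend on how many cells are dividing. In bulk samples such as these, fewer cells of a type and less RNA per cell cannot be told apart.

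Most tested kinetochore and cohesion members had more RNA in piPSCs than in PEFs. The polo-like kinase PLK1, the passenger protein survivin (BIRC5), the checkpoint kinase BUB1B and the inner kinetochore protein CENPT had the 4 largest increases on log2(FPKM + 1), of 3.60, 3.08, 3.00 and 2.92. Their order depends on the pseudocount of 1, which damps changes of genes at low levels. Cohesin regulators such as WAPL and ESCO1 and several dynactin subunits had similar values in both groups. The dynein light chain gene DYNLT3, the dynein adaptor gene NDEL1 and the histone demethylase gene PHF2 fell.

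The groups were compared with limma on log2(FPKM + 1) over 12428 genes whose mean FPKM reached 0.5. Of the 111 members, 101 passed this filter. A call needed a change of 2-fold or more and an adjusted p under 0.05. Of the 101 tested members, 53 (52.5%) were called higher in piPSCs, where 20.2% of all tested genes were. Called lower were 3 (2.97%), where 16.7% of all tested genes were. With no fold threshold, 66 members were higher, where 30.3% of all tested genes were, and 5 were lower, where 21.5% were. In the other 30 the test was not passed. Without a filter, 53 of all 111 members were called higher, where 13.1% of all rows were. An unadjusted p under 0.05 was reached by 75 of the 101 tested members, and by 7325 of all 12428 tested genes. Voom called 60 of the 101 in either direction, and 5128 of the 12428. Standard errors of the log2 fold change ran from 0.13 to 0.68 over the tested members, with a median of 0.28.

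The median log2 fold change was 1.10 over the 101 tested members and 0.20 over all tested genes. Rescaling the libraries to the median ratio over genes moved the median of all genes to -0.01, and the members' median to 0.89. A rescaling to equal FPKM sums used a sum of 1000000, where the deposited sums were 337074 to 437853, so it also lowered the weight of the pseudocount. These medians were then -0.06 and 0.94. With equal sums at the mean of the deposited sums, which was added after seeing the data and keeps that weight, they were -0.05 and 0.85. The split of calls moved as well. As deposited, 2505 genes were called higher and 2070 lower, so 54.8% of calls were higher, against 42.8% (1879 and 2511) with the median ratio, 41.4% (1986 and 2815) with equal sums of 1000000 and 40.3% (1770 and 2618) with equal sums at the mean. Of the members, 47 were then called higher and 5 lower with the median ratio, 48 and 6 with sums of 1000000, and 46 and 5 with sums at the mean. The added lower calls were CLIP1 and FBXO28 in all 3, and ANAPC16 with sums of 1000000. With no fold threshold, 66 members were higher and 5 lower as deposited. These counts were 58 and 10 with the median ratio, 53 and 10 with sums of 1000000, and 53 and 10 with sums at the mean. Below, equal sums are those of 1000000. In the fit and in the 17 alternatives to it that used other settings or left out libraries, 32 members were called higher. The same count over all tested genes is not given here.

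The order of the largest increases moved with the measure. With a pseudocount of 0.1, BUB1B (4.29), RAD51C (3.99), PLK1 (3.90) and CENPT (3.82) came first, and BIRC5 had 3.29. With voom they were BUB1B (4.55), SGO1 (4.34), RAD51C (4.22) and CENPT (3.95), with PLK1 at 3.89. By the ratio of group means in FPKM they were RAD51C (17.1), BUB1B (14.8), PLK1 (12.7) and CENPF (11.5), with BIRC5 at 8.35.

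Of the 53 members called higher, the 21 outside those 32 lost their call in at least 1 alternative. Those in a role list were HJURP, CENPK, CENPN, CENPO, CENPQ, CENPS, CENPU, NDC80, NUF2, SPC25, DSN1, BUB3, SPDL1, KIF18A, CLASP2 and RCC2. Those with other roles were ERCC6L, FBXW7, MCMBP, MRE11 and SS18L1. In the fits that lost them, their log2 fold changes were 0.73 to 2.09 and their adjusted p at most 0.131, so each kept its direction. Without line 5, 47 members were called higher and 2 lower. Without line 7 the counts were 42 and 3, and without line 8 they were 41 and 4. Of all 12428 tested genes, 13.8%, 17.5% and 19% were called higher without lines 5, 7 and 8, and 1281, 1822 and 1893 lower. In fits without 1 library, members called higher numbered 57, 48 and 47 without PEF5, PEF7 and PEF8, and 47, 55 and 53 without piPSC5, piPSC7 and piPSC8. The shares of all tested genes called higher were 20.1%, 17.9% and 18.3%, and 17.8%, 20.7% and 21.1%, in the same order.

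In 70 of the 101 tested members every piPSC library lay above every PEF library, where 37.3% of all tested genes did so. In 9 every piPSC library lay below, where 26.8% did so, and in 22 the groups overlapped. Set against its own PEF line, with ratios of FPKM + 1, piPSC5 had 42 of the 111 members up by 2-fold or more and 4 down by as much, where 15.5% and 13% of all rows were. For piPSC7 the counts were 57 up and 3 down, where 17.9% and 12% of all rows were. For piPSC8 they were 55 up and 6 down, where 16.9% and 17.1% of all rows were. At least 2-fold higher in all 3 pairs were 37 members (33.3%), where 8.82% of all 18007 rows were, and at least 2-fold lower in all 3 were 3, where 8.21% were. The 37 were all among the 53 that limma called higher. The members' median log2 ratio was 0.87, 1.28 and 1.23 in lines 5, 7 and 8 (SD 0.22, n = 3), beside 0.21, 0.24 and 0.08 over all tested genes.

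**Figure D1:**
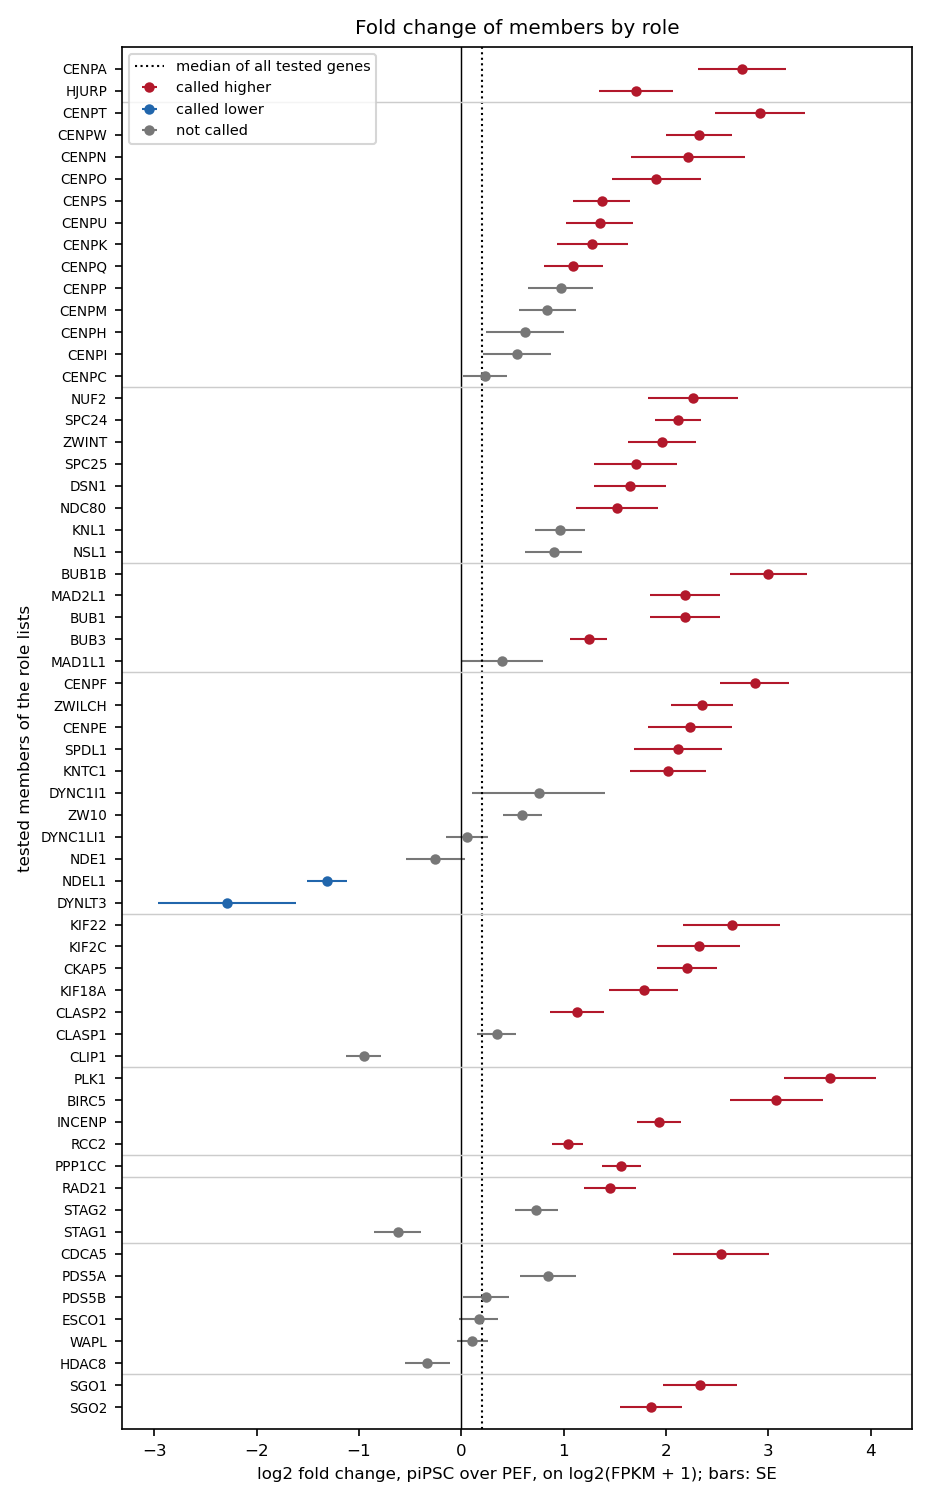
Log2 fold change (x axis, piPSC minus PEF, on log2 of FPKM + 1) of the tested members of the role lists (y axis), with points coloured by call, bars of 1 SE and a dotted line at the median of all tested genes, 0.20. PLK1 lies furthest right at 3.60, and NDEL1 at -1.31 and DYNLT3 at -2.29 were called lower, while members with other roles are not drawn.

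**Figure D2:**
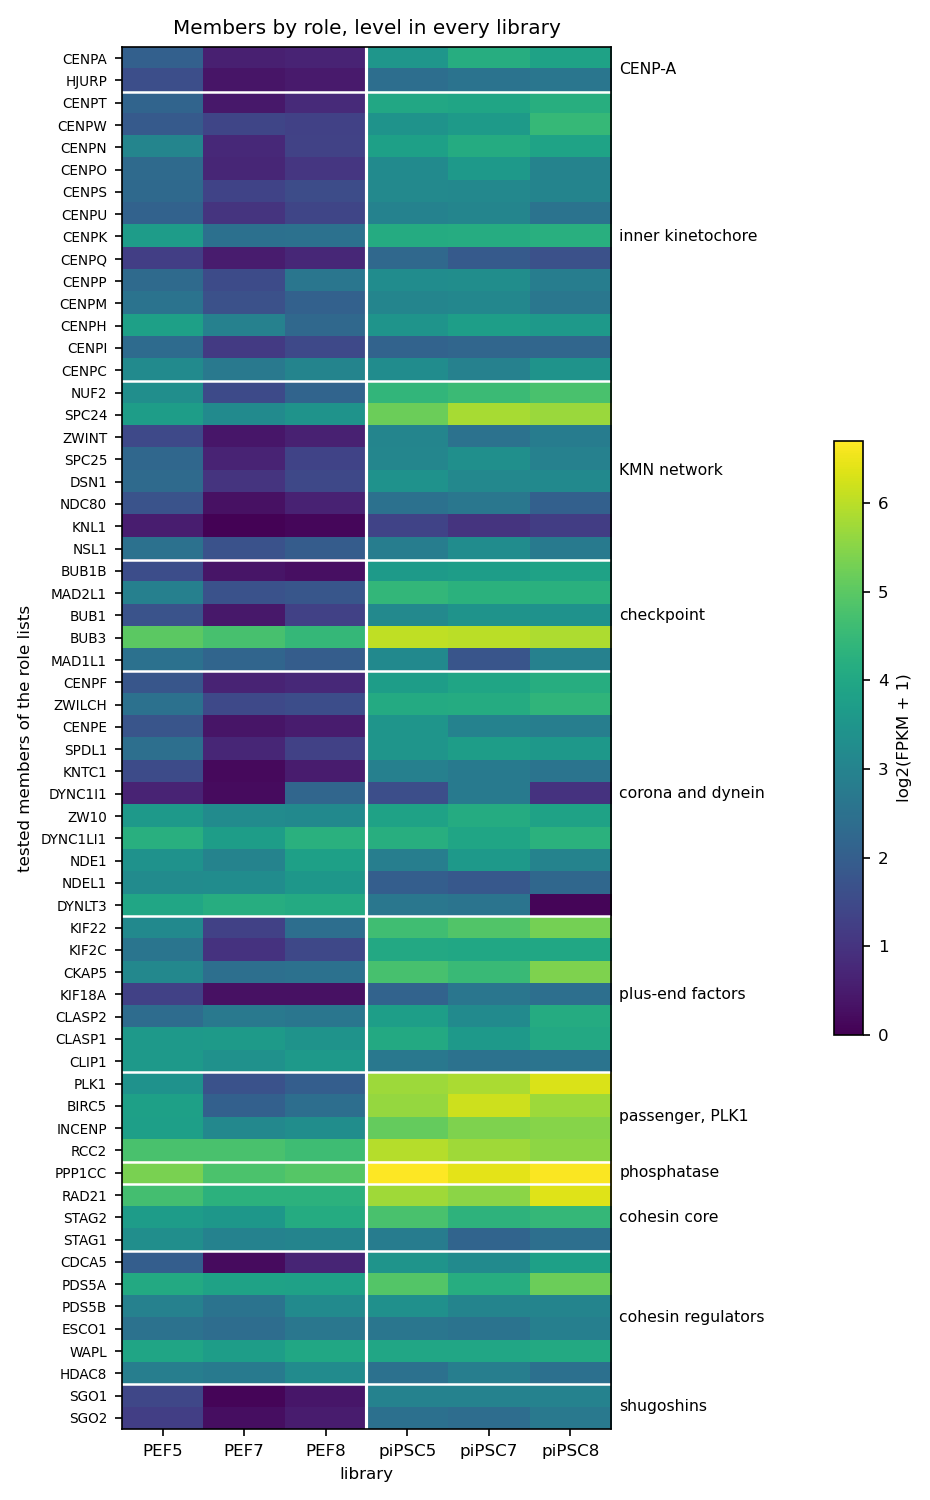
Level (colour, log2 of FPKM + 1) of the tested members of the role lists (y axis) in the 6 libraries (x axis), with white lines between roles and between groups. CENPA, at 3.17 FPKM in PEF5, 0.507 in PEF7 and 0.586 in PEF8, is one of many members with PEF5 the brightest PEF column.

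Promoter sequences are shown because 53 of the 101 tested members were called in the same direction. RefSeq promoters on Sscrofa11.1, 250 bases before to 50 after the gene start, were matched by symbol for 100 members, and the RefSeq start lay within 50 bases of the table's start for 48 and over 1 kilobase away for 14. Motifs were searched on both strands, as the letters TTTGAA or TTCGAA (the CHR, or cell cycle genes homology region), CCAAT, and TTTCCCGC or TTTGGCGC (E2F type). TTCGAA is its own reverse complement, and none of the other motifs contains another. Below, capitals mark CHR and CCAAT letters on either strand, in 4 members that were called higher and in NDEL1, which was called lower. All 5 hold CHR letters, and of these CENPA and CENPE hold CCAAT letters too. CENPA lies at chr3:112272589-112272888 on the minus strand, BIRC5 at chr12:3755165-3755464 on the minus strand, and CENPE at chr8:117888718-117889017 on the plus strand. NDC80 lies at chr6:104055736-104056035 on the minus strand and NDEL1 at chr12:53553647-53553946 on the plus strand.
CENPA: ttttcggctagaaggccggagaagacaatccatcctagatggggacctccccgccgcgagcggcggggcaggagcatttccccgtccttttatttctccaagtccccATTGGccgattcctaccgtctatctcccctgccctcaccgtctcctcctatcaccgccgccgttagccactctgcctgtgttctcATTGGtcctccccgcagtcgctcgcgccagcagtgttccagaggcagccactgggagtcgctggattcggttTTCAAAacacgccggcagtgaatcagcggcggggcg
BIRC5: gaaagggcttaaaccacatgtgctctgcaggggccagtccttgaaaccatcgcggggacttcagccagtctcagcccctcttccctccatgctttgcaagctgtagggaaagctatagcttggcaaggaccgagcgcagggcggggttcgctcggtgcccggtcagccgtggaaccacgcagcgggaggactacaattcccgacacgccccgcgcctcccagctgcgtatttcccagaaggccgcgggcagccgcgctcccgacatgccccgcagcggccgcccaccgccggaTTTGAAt
CENPE: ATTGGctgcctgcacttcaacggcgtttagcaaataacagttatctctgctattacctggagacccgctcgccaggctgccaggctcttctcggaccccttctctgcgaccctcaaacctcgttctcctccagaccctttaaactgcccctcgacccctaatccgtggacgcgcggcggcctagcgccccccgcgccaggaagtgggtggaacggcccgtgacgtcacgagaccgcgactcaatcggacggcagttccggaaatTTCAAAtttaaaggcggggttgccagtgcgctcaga
NDC80: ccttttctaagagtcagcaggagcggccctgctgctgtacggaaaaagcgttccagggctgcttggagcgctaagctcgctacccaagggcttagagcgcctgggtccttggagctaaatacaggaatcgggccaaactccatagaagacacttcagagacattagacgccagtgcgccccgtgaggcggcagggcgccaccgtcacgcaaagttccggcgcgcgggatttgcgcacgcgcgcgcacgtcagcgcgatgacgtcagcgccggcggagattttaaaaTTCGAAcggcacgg
NDEL1: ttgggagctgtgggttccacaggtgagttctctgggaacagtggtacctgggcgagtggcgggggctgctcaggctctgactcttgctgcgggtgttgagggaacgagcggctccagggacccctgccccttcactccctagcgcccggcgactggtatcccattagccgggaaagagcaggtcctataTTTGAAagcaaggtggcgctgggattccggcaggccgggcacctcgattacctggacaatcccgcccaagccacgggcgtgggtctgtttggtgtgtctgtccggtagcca

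CHR letters were present in 26 of 52 promoters of members called higher (50%), in 9 of 40 of tested members not called (22.5%) and in 15.6% of all 19556 protein-coding promoters of the same length. Of the 10 largest increases 4 held CHR letters, as did 1 of the 3 members called lower. CCAAT was present in 30 of the 52 (57.7%), in 17 of the 40 (42.5%) and in 35.4% of all. Both together were present in 18 of the 52 (34.6%), in 4 of the 40 (10%) and in 6.14% of all. E2F-type letters were rare, in 4 of the 52 (7.69%), 1 of the 40 (2.5%) and 2.36% of all. Of the 5 sequences printed, CENPA and CENPE hold CHR letters 15 bases after the start, NDC80 37 and BIRC5 44 bases after it, and NDEL1 61 bases before it. A match describes letters in these windows and was not tested as a binding site. The PLK1 window, which holds CCAAT but no CHR letters, is one of the 14 that lie over 1 kilobase from the table's start.

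CENP-A and the chaperone that places it were both higher in piPSCs. CENPA (ENSSSCG00000038543, chr3:112263664-112272682, Sscrofa11.1), the histone variant itself, had 3.17, 0.507 and 0.586 FPKM in PEF5, PEF7 and PEF8 and 10.5, 16.9 and 13.6 in piPSC5, piPSC7 and piPSC8. The groups did not overlap, and PEF5 stood above the other PEF lines. Its log2 fold change was 2.74 (SE 0.43, adjusted p = 0.00285, higher in 3 of 3 lines). HJURP (ENSSSCG00000016313, chr15:134105619-134123188), the CENP-A chaperone, had 2.05, 0.312 and 0.402 FPKM in PEFs and 4.33, 4.88 and 5.21 in piPSCs. PEF5 again was the highest PEF library and below every piPSC library. HJURP rose by 1.71 on the log2 scale (SE 0.36, adjusted p = 0.00831), and by 2.68 with a pseudocount of 0.1 and 2.85 with voom. Its adjusted p was 0.0697 without line 7 and 0.0573 without line 8, in a range from 0.00277 to 0.0697 over 17 alternatives. Of the whole list of 6 genes that mark and load centromeres, which holds 4 genes outside the members, 5 were called higher. CENPB, a protein that binds centromeric satellite DNA, had a log2 fold change of -0.77 (adjusted p = 0.0134).

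The inner kinetochore, or constitutive centromere associated network (CCAN), bridges CENP-A chromatin to the outer layer. Of its 14 members, 13 were tested, 8 were called higher and 0 lower, at a median log2 fold change of 1.28. Limma also passed CENPM (adjusted p = 0.0429) and CENPP (0.0409) at under 2-fold, and not CENPC, CENPH and CENPI. With the line as a replicate block, CENPM (0.0585) and CENPP (0.0731) did not pass. CENPM passed in 5 of 17 alternatives, with adjusted p from 0.0271 to 0.222, and CENPP in 6, with 0.0320 to 0.189. Without line 7 their log2 fold changes went from 0.84 and 0.97 to 0.54 and 0.58. CENPH and CENPI, at 0.62 and 0.54, passed in 1 alternative, the fit without PEF5, with 1.02 (adjusted p = 0.0315, a call) and 0.89 (0.0340). CENPH had 0.25 without PEF8, and CENPI had 0.28 without PEF7. CENPL, of this layer but outside the members, had 0.90 (0.0346). For 0 called lower, 10 of the 13 had an unadjusted p under 0.05, each of those 10 higher, and voom called 8. The count of 8 was 5 without piPSC5, 2 without line 7 (CENPT and CENPW) and 5 without line 8, and between 6 and 10 without any other library and 7 without line 5.

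CENPT (ENSSSCG00000002768, chr6:28446687-28456130), which binds the NDC80 complex directly, had 3.46, 0.351 and 0.738 FPKM in PEFs and 15.2, 14.2 and 17.3 in piPSCs. Every piPSC library was far above PEF7 and PEF8, and PEF5 lay between. CENPT rose by 2.92 on the log2 scale (SE 0.44, adjusted p = 0.00253). CENPW (ENSSSCG00000035700, chr1:36685265-36695955), the histone-fold partner of CENPT, had 2.74, 1.62 and 1.47 FPKM in PEFs and 9.85, 11.6 and 21.2 in piPSCs, with piPSC8 the highest. The log2 fold change of CENPW was 2.32 (SE 0.33, adjusted p = 0.00192). CENPK (ENSSSCG00000016946, chr16:44042219-44080472), the subunit with the highest mean level of the tested CCAN members, had 12.1, 4.52 and 4.69 FPKM in PEFs and 16.6, 16.9 and 17.7 in piPSCs. The groups did not overlap, but PEF5 was nearer to the piPSC libraries than to PEF7 and PEF8. The log2 fold change of CENPK was 1.28 (SE 0.35, adjusted p = 0.0211). Its adjusted p was over 0.05 without PEF7 (0.0675), PEF8 (0.0661), piPSC5 (0.0598), piPSC7 (0.0526) or piPSC8 (0.0533), without line 7 (0.131) or line 8 (0.118), and with equal sums (0.0604).

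CENPC, the CCAN protein that contacts both CENP-A nucleosomes and the outer layer, was not called. It had 8.21, 5.59 and 7.06 FPKM in PEFs and 8.51, 6.65 and 9.87 in piPSCs, and the groups overlapped. Its log2 fold change was 0.23 (SE 0.22, adjusted p = 0.399), and its sign flipped with both rescalings. CENPX, a histone-fold subunit, lay under the filter, with 1 fragment in piPSC8 and 0 in the other libraries.

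The outer kinetochore, or KMN network, is the microtubule-binding layer made of KNL1, the MIS12 complex and the NDC80 complex. All 8 of its members were tested, 8 were higher at an adjusted p under 0.05, and 6 were called. Without line 7 the called members numbered 3 and without line 8 they numbered 2, against 5 to 8 without any single library. Their summed FPKM was 38.0, 14.5 and 20.7 in PEF5, PEF7 and PEF8 and 93.1, 115 and 108 in piPSC5, piPSC7 and piPSC8. NUF2, SPC24, ZWINT, SPC25, DSN1 and NDC80 rose by 2.26, 2.12, 1.96, 1.70, 1.65 and 1.52 on the log2 scale. With a pseudocount of 0.1 NDC80 rose by 2.44, and with voom it rose by 2.65 and ZWINT by 3.10.

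SPC24 (ENSSSCG00000033444, chr2:69884305-69890328), which anchors the NDC80 complex to the inner layers, had 12.3, 8.23 and 9.84 FPKM in PEFs and 35.9, 55.7 and 50.8 in piPSCs. These were the highest levels of the 8, and the groups lay far apart (SE 0.23, adjusted p = 0.000802). NUF2 (ENSSSCG00000006333, chr4:87162739-87194072), the partner of NDC80 in the microtubule-binding head, had 8.85, 1.84 and 3.48 FPKM in PEFs and 20.4, 22.9 and 26.2 in piPSCs (adjusted p = 0.00618). The lowest piPSC library was above PEF5, the highest PEF library. NDC80 (ENSSSCG00000003697, chr6:103997590-104055816) had 2.27, 0.238 and 0.557 FPKM in PEFs and 4.66, 5.33 and 3.17 in piPSCs, and PEF5 came closest to piPSC8.

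NDC80 passed at an adjusted p of 0.0191, but not without PEF7 (0.0581), PEF8 (0.0607), piPSC5 (0.0615) or piPSC7 (0.0563), nor without line 7 (0.131) or line 8 (0.0654), and its lowest value over 17 alternatives was 0.00638. DSN1, a MIS12 complex subunit, had an adjusted p of 0.00878, with 0.0503 without line 7 and 0.0566 without line 8 (lowest 0.00371). SPC25, the partner of SPC24, had 0.0132, with 0.0724 without line 7 and 0.0652 without line 8 (lowest 0.00508). NUF2 had 0.0518 without line 8 (lowest 0.00211). ZWINT, a KNL1 partner, was past the threshold in all 17 alternatives, with adjusted p between 0.00317 and 0.0321.

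KNL1 (ENSSSCG00000039107, chr1:130651701-130728975), the scaffold for BUB proteins, had 0.438, 0.0355 and 0.0849 FPKM in PEFs and 1.56, 1.01 and 1.33 in piPSCs. Its levels were the lowest of the 8, and it is the 1 tested member whose PEF mean was under 0.5 FPKM. KNL1 rose by 0.96 on the log2 scale (SE 0.25, adjusted p = 0.0172). At such low values the fold moves with the pseudocount, and was 2.54 with a pseudocount of 0.1 and 3.49 with voom. Its adjusted p was over 0.05 without PEF7 (0.0528), piPSC5 (0.0570), line 5 (0.0757), line 7 (0.0621) or line 8 (0.0548), with a lowest value of 0.00953 over 16 alternatives. NSL1, a MIS12 complex subunit, had 4.63, 2.21 and 2.85 FPKM in PEFs and 6.10, 8.64 and 5.67 in piPSCs. NSL1 had a log2 fold change of 0.90 (adjusted p = 0.0329), which passed in 6 of 17 alternatives, with adjusted p from 0.0222 without PEF5 to 0.195 without line 7. The replicate block of lines gave it 0.0651, and without line 7 its log2 fold change was 0.56. Outside the members, MIS12 itself had a log2 fold change of 0.12 (adjusted p = 0.669). The SKA complex helps the outer kinetochore follow shrinking microtubules, and 2 of its 3 genes were called higher, SKA1 by 1.96 and SKA2 by 1.69.

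**Figure D3:**
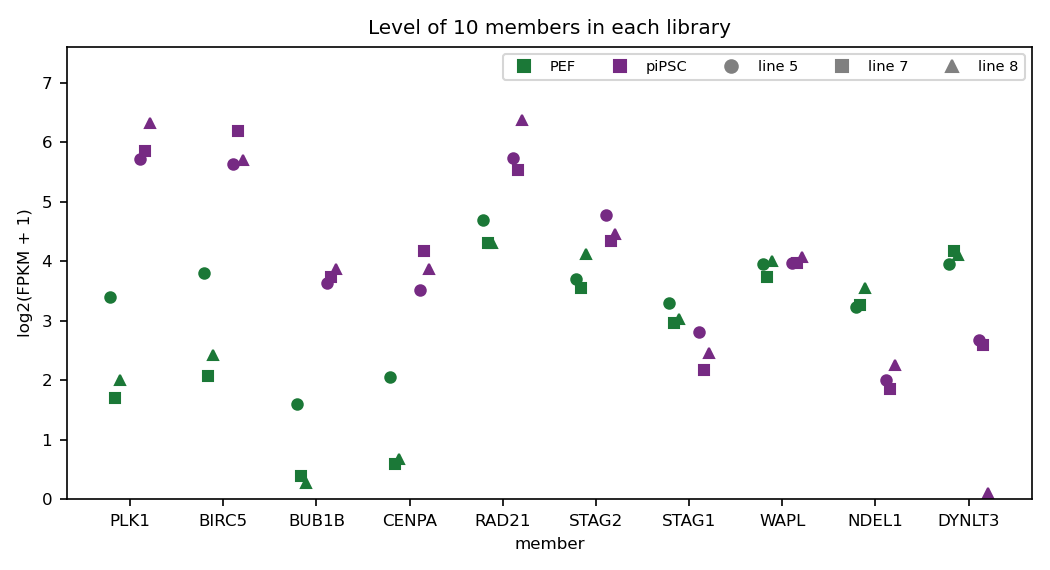
Level (y axis, log2 of FPKM + 1) of 10 members (x axis) in the 6 libraries, with 1 point per library, PEFs green, piPSCs purple and a marker shape for each line. PLK1 spans 2.24 to 9.58 FPKM in PEFs and 51.7 to 78.9 in piPSCs, while WAPL spans 12.3 to 15.0 and 14.6 to 15.8.

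The spindle checkpoint makes the signal that holds back the anaphase promoting complex. Of its 5 members, 4 were called higher, at a median log2 fold change of 2.18 over the 5. BUB1B (ENSSSCG00000004782, chr1:131075058-131144118), which encodes BUBR1, a part of that inhibitor, had 2.02, 0.312 and 0.203 FPKM in PEFs and 11.4, 12.4 and 13.6 in piPSCs. The piPSC libraries lay close together and far above the PEF libraries. BUB1B rose by 3.00 on the log2 scale (SE 0.37, adjusted p = 0.00125). It overlaps PAK6 on the same strand, which had 15.2 FPKM in piPSC8 and at most 0.661 in the other libraries, so its value in piPSC8 is uncertain. BUB3 (ENSSSCG00000010726, chr14:132703083-132715348), which brings BUB1 and BUBR1 to KNL1, had 31.3, 26.0 and 20.9 FPKM in PEFs and 65.7, 63.7 and 57.8 in piPSCs. It was the most abundant checkpoint member in every library and rose by 1.24 (SE 0.18, adjusted p = 0.00212), and by 0.98 and 0.94 with the rescalings.

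BUB1, the kinase that marks centromeres for shugoshin, and MAD2L1, the checkpoint protein that binds CDC20, each rose by 2.18 on the log2 scale. MAD1L1 (ENSSSCG00000038766, chr3:1236070-1559059), which carries MAD2 to the kinetochore, had 4.65, 3.55 and 2.97 FPKM in PEFs and 8.01, 2.40 and 6.64 in piPSCs. Its piPSC7 value lay below every PEF library, and the groups overlapped. The log2 fold change of MAD1L1 was 0.40 (SE 0.39, adjusted p = 0.418). Without piPSC7 it was 0.83 (adjusted p = 0.0370), in a range of adjusted p from 0.0370 to 0.859 over 17 alternatives. The log2 fold change was 0.13 without piPSC5, 0.24 without piPSC8, 0.81 without line 7 and 0.13 without line 8. The rescalings gave 0.18 (median ratio) and 0.14 (equal sums). Outside the members, TTK, the kinase also called MPS1, had a log2 fold change of 2.33, and TRIP13, which recycles MAD2, had 2.39, both called higher, while MAD2L1BP, a MAD2 partner, had 0.28 and did not pass (adjusted p = 0.343). The row of CDC20 was near 0 in all libraries.

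The fibrous corona, the RZZ complex and dynein linkers form the outermost, expandable layer that captures microtubules and strips checkpoint proteins away. All 11 members of this group were tested, 5 were called higher and 2 lower, so both directions occurred within 1 layer. Their median log2 fold change was 0.76, the value of DYNC1I1. It was 1.35 without PEF8, 1.15 without piPSC8, 0.45 without line 7, 1.75 without line 8, 1.48 with a pseudocount of 0.1 and 1.77 with voom. CENPF, CENPE, KNTC1, SPDL1 and ZWILCH were higher. CENPF (ENSSSCG00000015581, chr9:128949182-129008793), a large corona protein of dividing cells, had 2.48, 0.596 and 0.701 FPKM in PEFs and 12.3, 14.4 and 16.9 in piPSCs. The groups did not overlap, and CENPF rose by 2.87 on the log2 scale (SE 0.34, adjusted p = 0.00106). ZWILCH and KNTC1, 2 of the 3 RZZ subunits, rose by 2.35 and 2.02, while ZW10, the third, had a log2 fold change of 0.59 (adjusted p = 0.0377). ZW10 passed in 6 of 17 alternatives, with adjusted p from 0.0269 to 0.252, and did not with the line as a replicate block (0.0670) or with either rescaling (0.162 and 0.252), where its log2 fold change was 0.35 and 0.31. With a pseudocount of 0.1 KNTC1 rose by 3.25, and with voom it rose by 3.58 and CENPE by 3.47, against 2.23 for CENPE in the fit.

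Dynein brings cargo from kinetochores to spindle poles, and both called decreases of this layer were on the dynein side. DYNLT3 (ENSSSCG00000028908, chrX:33711492-33724581), a dynein light chain that binds BUB3, had 14.5, 17.1 and 16.1 FPKM in PEFs and 5.35, 5.01 and 0.0680 in piPSCs. All 3 piPSC libraries lay below every PEF library, and piPSC8 had 2 fragments where piPSC5 had 215 and piPSC7 had 159. DYNLT3 fell by 2.29 on the log2 scale (SE 0.68, adjusted p = 0.0284), and by 1.45 without piPSC8 (adjusted p = 0.00309). Its adjusted p was over 0.05 with a pseudocount of 0.1 (0.0768) or no filter (0.0528), without PEF5 (0.0702), PEF7 (0.0794) or PEF8 (0.0746), and without line 5 (0.0850) or line 7 (0.0866). Over 17 alternatives it ran from 0.00309 to 0.0866.

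NDEL1 (ENSSSCG00000017986, chr12:53553914-53641355), an adaptor that regulates dynein, had 8.33, 8.63 and 10.7 FPKM in PEFs and 2.99, 2.62 and 3.75 in piPSCs. The 3 libraries of each group lay close together, and the groups were well apart. NDEL1 fell by 1.31 on the log2 scale (SE 0.20, adjusted p = 0.00250, lower in 3 of 3 lines). Its paralog NDE1 had 9.73, 7.02 and 13.0 FPKM in PEFs and 6.28, 11.0 and 7.03 in piPSCs, which overlapped (log2 fold change -0.26, adjusted p = 0.478). DYNC1LI1, a dynein light intermediate chain, had 17.7, 12.3 and 18.2 FPKM in PEFs and 17.3, 14.2 and 18.3 in piPSCs. Line by line these values were nearly equal (log2 fold change 0.06, adjusted p = 0.827), and the sign flipped with both rescalings. Outside the members, NUDC, a chaperone of dynein regulators, was called higher with a log2 fold change of 1.61. PAFAH1B1, the LIS1 partner of NDEL1, passed as lower at under 2-fold, with -0.52 (adjusted p = 0.0217), and DYNLL1, a dynein light chain, had 0.16 and did not pass.

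Microtubule plus-end factors and kinesins move and depolymerise the fibres to which kinetochores bind. All 7 members were tested, and 5 were called higher, at a median log2 fold change of 1.78. Without line 8, 4 were called higher. KIF22 (ENSSSCG00000029509, chr3:18023095-18042649), a chromokinesin that pushes chromosome arms, had 8.01, 1.45 and 4.34 FPKM in PEFs and 24.0, 28.2 and 38.0 in piPSCs. It rose by 2.64 on the log2 scale (SE 0.47, adjusted p = 0.00449), with no overlap between groups. KIF22 overlaps MAZ on the same strand, which was higher too, by 1.42, so the value of KIF22 is uncertain. CKAP5 (ENSSSCG00000013249, chr2:15680787-15792633), a microtubule polymerase, had 7.67, 4.43 and 4.69 FPKM in PEFs and 25.7, 22.3 and 41.3 in piPSCs. The highest value was that of piPSC8, and CKAP5 rose by 2.21 (SE 0.30, adjusted p = 0.00161). KIF2C, KIF18A and CLASP2 were also called higher, KIF18A by 1.78, or 3.27 with voom. Outside the members, KIF2A and MAPRE1 had 0.64 and 0.44 and did not pass. CLIP1, which follows growing plus ends, went the other way, with a log2 fold change of -0.96 (SE 0.17, adjusted p = 0.00427). It passed the test at under 2-fold, but not without line 5 (0.0591). CLIP1 overlaps VPS33A on the same strand, which had 6.72 to 11.7 FPKM, so the value of CLIP1 is uncertain.

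The chromosomal passenger complex corrects faulty attachments, and PLK1 acts at kinetochores and on cohesin. All 4 members of this group were called higher. PLK1 (ENSSSCG00000026748, chr3:22538132-22549437) had 9.58, 2.24 and 2.98 FPKM in PEFs and 51.7, 56.8 and 78.9 in piPSCs. Its lowest piPSC value was several times its highest PEF value. PLK1 rose by 3.60 on the log2 scale (SE 0.45, adjusted p = 0.00129), the largest increase of any tested member at a pseudocount of 1. BIRC5 (ENSSSCG00000040486, chr12:3747271-3755207), which targets the complex to centromeres, had 13.0, 3.19 and 4.35 FPKM in PEFs and 48.6, 71.6 and 51.1 in piPSCs. PEF5 stood above the other PEF lines but well below the piPSC libraries. BIRC5 rose by 3.08 (SE 0.45, adjusted p = 0.00228).

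INCENP (ENSSSCG00000013066, chr2:9414584-9441470), the scaffold of the complex, had 12.7, 7.77 and 8.73 FPKM in PEFs and 33.6, 41.1 and 43.4 in piPSCs. INCENP rose by 1.93 on the log2 scale (SE 0.22, adjusted p = 0.000879), and its groups lay far apart. RCC2 (ENSSSCG00000003485, chr6:75988272-76014160), a passenger-associated protein, had 26.3, 26.3 and 23.4 FPKM in PEFs and 61.1, 52.1 and 46.6 in piPSCs. Its PEF libraries were nearly equal, and RCC2 rose by 1.04 (SE 0.16, adjusted p = 0.00243). RCC2 was under 2-fold with the rescalings (0.77 and 0.73), without PEF8 (0.98) or piPSC5 (0.94), and without line 5 (0.96). Outside the members, AURKB, the kinase of the complex, and CDCA8, its borealin subunit, were called higher, AURKB with a log2 fold change of 3.11, while AURKC, its meiotic relative, had -0.71 (adjusted p = 0.0526).

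The phosphatase PPP1CC, which silences the checkpoint at KNL1, was the 1 phosphatase member. PPP1CC (ENSSSCG00000009828, chr14:32069628-32091267) had 40.0, 26.7 and 29.3 FPKM in PEFs and 103, 84.3 and 99.4 in piPSCs, the highest piPSC mean of the members called higher. It rose by 1.56 on the log2 scale (SE 0.19, adjusted p = 0.00118), and the groups did not overlap. Of 8 other phosphatase genes of the list, limma called 0 higher and 1 lower, PPP2R5B at -1.44. Among those 8, 3 had an unadjusted p under 0.05, and voom called 1.

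Cohesin is a ring of SMC1A, SMC3 and RAD21 to which 1 of the paralogs STAG1 and STAG2 is bound. RAD21, STAG1 and STAG2 were members, and of these limma called RAD21 alone. RAD21 (ENSSSCG00000006014, chr4:21720896-21803380), the ring subunit that separase cleaves, had 24.8, 18.8 and 18.7 FPKM in PEFs and 52.3, 45.3 and 81.9 in piPSCs. The piPSC libraries were all above the PEF libraries, with piPSC8 the highest, and RAD21 rose by 1.45 on the log2 scale (SE 0.25, adjusted p = 0.00413). The other ring genes, outside the members, were called higher too, SMC1A with a log2 fold change of 1.10 and SMC3 with 1.17.

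STAG2 (ENSSSCG00000012642, chrX:101477233-101617563) had 12.0, 10.7 and 16.3 FPKM in PEFs and 26.4, 19.1 and 21.0 in piPSCs. STAG1 (ENSSSCG00000011652, chr13:77321880-77863508) had 8.84, 6.81 and 7.16 FPKM in PEFs and 5.98, 3.48 and 4.48 in piPSCs. Neither pair of groups overlapped, and the paralogs lay in opposite directions. STAG2 had a log2 fold change of 0.73 (SE 0.21, adjusted p = 0.0265), and STAG1 had -0.62 (SE 0.23, adjusted p = 0.0565), which missed the threshold. STAG2 passed in 9 of 17 alternatives, with adjusted p from 0.0185 to 0.202. It did not pass with either rescaling (0.0810 and 0.146), where its log2 fold change was 0.48 and 0.45, nor without PEF5 (0.0766), PEF7 (0.0808), piPSC5 (0.0909), piPSC8 (0.0516), line 5 (0.202) or line 7 (0.0852). STAG1 passed in 5 alternatives, with adjusted p from 0.0165 to 0.169, namely both rescalings (0.0165 and 0.0216), the replicate block of lines (0.0472), voom (0.0478) and the fit without piPSC5 (0.0458). With equal sums the log2 fold change of STAG1 was -0.99.

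A ratio of STAG1 to STAG2 within a library does not depend on how libraries are scaled. The log2 ratio was -0.45, -0.65 and -1.19 in PEF5, PEF7 and PEF8 and -2.15, -2.46 and -2.23 in piPSC5, piPSC7 and piPSC8. Every piPSC library was lower than every PEF library. The means were -0.76 ± 0.38 and -2.28 ± 0.16 (SD, n = 3), a difference of -1.51 with a two-sided exact permutation p of 0.1, the smallest that 3 lines against 3 can give. The log2 ratio of PDS5A to PDS5B, paralogs that hold WAPL or the acetylation machinery on cohesin, was 1.26, 1.46 and 0.70 in PEFs and 1.66, 1.27 and 2.32 in piPSCs. The groups overlapped, and the difference was 0.61 (two-sided exact permutation p = 0.2). It was 0.33 without piPSC8, 0.39 without PEF8 and 0.85 without piPSC7.

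Loading, acetylation and release factors decide when cohesin binds and leaves. Of 6 members in this group, 1 was called higher and 0 lower, at a median log2 fold change of 0.20, beside 0.20 over all tested genes. The group's median was 0.085 without PEF7 and 0.31 without PEF8, and -0.027 and -0.080 with the rescalings. Limma gave an unadjusted p under 0.05 to 2 of them, and voom called 1. CDCA5 (ENSSSCG00000013008, chr2:7103679-7113239), the sororin gene, which shields cohesin from WAPL, was the one called. It had 3.00, 0.153 and 0.608 FPKM in PEFs and 10.0, 8.29 and 13.1 in piPSCs, and rose by 2.54 on the log2 scale (SE 0.47, adjusted p = 0.00522), or 3.91 with voom. PEF5 lay between PEF7 and PEF8 on one side and the piPSC libraries on the other.

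PDS5A (ENSSSCG00000023112, chr8:30988370-31134033) had 15.8, 13.4 and 13.3 FPKM in PEFs and 29.1, 17.2 and 35.7 in piPSCs. All piPSC libraries were higher, piPSC7 only slightly, and PDS5A had a log2 fold change of 0.84 (adjusted p = 0.0395). It passed in 7 of 17 alternatives, with adjusted p from 0.00645 without piPSC7 to 0.181 without line 5. It did not pass with either rescaling (0.129 with the median ratio and 0.154 with equal sums, where its log2 fold change was 0.55) or with no filter (0.0600), nor without PEF5 (0.0707), PEF7 (0.102), PEF8 (0.0986), piPSC5 (0.116), piPSC8 (0.0954) or line 8 (0.177). WAPL (ENSSSCG00000010357, chr14:87492114-87588730), which opens the ring, had 14.4, 12.3 and 15.0 FPKM in PEFs and 14.6, 14.6 and 15.8 in piPSCs. These values overlapped within a narrow range. WAPL, ESCO1 (an acetyltransferase), PDS5B and HDAC8 (the deacetylase that recycles SMC3) had log2 fold changes of 0.11, 0.17, 0.24 and -0.33, none of which passed the test. The sign of WAPL and of ESCO1 flipped with both rescalings and that of PDS5B with equal sums. HDAC8 had -0.56 with the median ratio, -0.67 with equal sums, -0.19 without PEF8, -0.56 without line 7 and -0.12 without line 8. PDS5B had 0.068 without PEF7 and 0.39 without PEF8. Neither passed in any of the 17 alternatives. Outside the members, the loader genes NIPBL and MAU2 had 0.33 and 0.17 and did not pass, ESCO2 had 0.99 (adjusted p = 0.0410), and CHTF18, of the clamp loader, was called higher with 1.14.

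Shugoshins protect centromeric cohesin until anaphase, and both members were called higher. SGO1 (ENSSSCG00000011207, chr13:7137890-7153170) had 1.68, 0.0573 and 0.316 FPKM in PEFs and 6.83, 6.77 and 6.82 in piPSCs. The piPSC libraries were nearly equal, while the PEF libraries differed from each other many-fold. SGO1 rose by 2.33 on the log2 scale (SE 0.36, adjusted p = 0.00278), and SGO2 by 1.85 (SE 0.30, adjusted p = 0.00334). At these low PEF levels the folds move with the pseudocount, and were 3.82 and 2.99 with a pseudocount of 0.1 and 4.34 and 3.24 with voom. ESPL1, separase itself and outside the members, had a log2 fold change of 2.44 and was called higher. SMC1B, the meiotic ring subunit, lay under the filter, at 0.141 FPKM or less in every library, and REC8, outside the members, had -0.36 and did not pass.

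Of 47 members with other roles, 39 were tested, 14 were called higher and 1 lower. Their median log2 fold change was 0.54, or 0.33 and 0.32 with the rescalings. Without line 8, 11 were called higher and 2 lower. RAD51C (ENSSSCG00000023955, chr12:34975979-35019019), a recombination protein, had 0.948, 0.420 and 0.274 FPKM in PEFs and 8.93, 8.08 and 11.0 in piPSCs. The groups were far apart, with every PEF library under 1 FPKM. RAD51C rose by 2.76 on the log2 scale (SE 0.24, adjusted p = 0.000444). NEK2, a kinase of centrosome separation, rose by 2.51. BOD1 (ENSSSCG00000016982, chr16:50734566-50743413), which restrains a phosphatase at kinetochores, had 29.0, 26.5 and 31.0 FPKM in PEFs and 78.7, 87.5 and 101 in piPSCs. PEF levels of BOD1 were alike, and it rose by 1.59 (SE 0.15, adjusted p = 0.000549). The smallest adjusted p among the called members was that of PHB2, a prohibitin annotated to cohesion, at 0.000438, with a log2 fold change of 1.61. The other members called higher in this group were AHCTF1, ERCC6L, FBXW7, KNSTRN, MCMBP, MRE11, PINX1, RANGAP1, SPOUT1 and SS18L1, with log2 fold changes from 1.10 to 2.28.

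PHF2 (ENSSSCG00000008080, chr3:42988231-43080206), a histone lysine demethylase, had 7.19, 7.74 and 4.27 FPKM in PEFs and 1.71, 1.18 and 0.772 in piPSCs. Every piPSC library was below every PEF library. PHF2 fell by 1.72 on the log2 scale (SE 0.29, adjusted p = 0.00342, lower in 3 of 3 lines). NDEL1 and PHF2 were called lower in all 17 alternatives as well. FBXO28, an F-box protein, had a log2 fold change of -0.98 (SE 0.17, adjusted p = 0.00378), under 2-fold. A second row described as F-box only protein 28 overlaps it on the same strand and lay under the filter, so the value of FBXO28 is uncertain. The dynactin subunits DCTN3, DCTN5 and DCTN6 had log2 fold changes of 0.42, -0.0047 and -0.089, and none passed the test. SEPTIN2, SEPTIN6 and SEPTIN7, of the septin filaments, had 0.27, 0.54 and -0.42, and none passed either. With equal sums at the mean deposited sum, SEPTIN7 passed as lower, with -0.74 (adjusted p = 0.00971, against 0.05025 as deposited). SEPTIN2 and SEPTIN6 then had -0.044 and 0.29 and did not pass.

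The 10 members under the filter were CENPX, SMC1B, TEX14, RASSF2, PHEROC and 5 rows listed by identifier only. The 5 rows are described as centromere protein P, TEX14, F-box only protein 28, casein kinase I alpha and craniofacial development protein 1, names that also belong to tested or listed members, so their fragments are uncertain. PHEROC is described in the table as Mammaglobin-A, the name of a secreted protein. RASSF2, a RAS-association domain protein, had 17, 28 and 40 fragments in PEFs and 0 in all 3 piPSC libraries. Against a floor of 3 fragments over the group, it was at least 21.6-fold lower in piPSCs, with no test. This floor covers counting error only.

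PEF5 stood apart from the other PEF lines in these genes. In 21 of the 101 tested members (20.8%) the ratio of FPKM + 1 was at least 2-fold against both PEF7 and PEF8, where 1.77% of all tested genes were. The 21 include CENPA, HJURP, PLK1, BIRC5, BUB1B, MAD2L1, NDC80, NUF2, SGO1, CDCA5, KNTC1, KIF2C and NEK2. All 21 were called higher in piPSCs, where 20.2% of all tested genes were, and in all 21 PEF5 was below every piPSC library. These counts are not given here for the other tested genes in which PEF5 was as high. PEF5 was the highest PEF library in 66 tested members (65.3%), against 37% of all tested genes. Without PEF5, 57 members were called higher, and without line 5, 47, where 20.1% and 13.8% of all tested genes were.

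Proliferation markers moved with this pattern. The summed FPKM of 7 such markers was 182, 43.6 and 63.8 in PEF5, PEF7 and PEF8 and 336, 318 and 335 in piPSC5, piPSC7 and piPSC8, with PCNA, the replication clamp, among the 7. Of the 7, 6 were called higher in piPSCs. MKI67, the Ki-67 antigen of dividing cells, had 3.83, 0.328 and 0.618 FPKM in PEFs and 18.9, 14.0 and 15.9 in piPSCs, with a log2 fold change of 2.97. TOP2A, the mitotic topoisomerase, had 8.68, 1.29 and 1.28 FPKM in PEFs and 43.0, 29.5 and 46.0 in piPSCs, with a log2 fold change of 3.43. Both were lowest in PEF7 and PEF8, intermediate in PEF5 and highest in piPSCs. RRM2, of nucleotide synthesis, had 68.8, 3.56 and 13.2 FPKM in PEFs and 47.3, 41.2 and 67.5 in piPSCs and did not pass (adjusted p = 0.168). The part of proliferation in the members' differences was not tested.

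**Figure D4:**
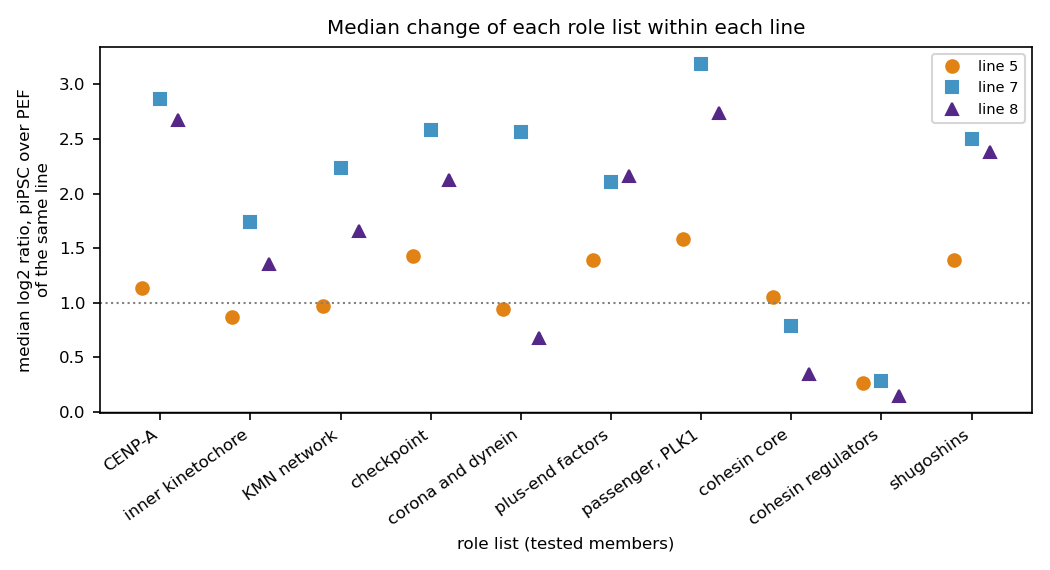
Median log2 ratio of piPSC to PEF (y axis, log2 of FPKM + 1) of the tested members of each role list (x axis), with 1 point per line and a dotted line at 1. For outer kinetochore members the medians are 0.97 in line 5, 2.24 in line 7 and 1.66 in line 8, and for loading and release factors 0.27, 0.28 and 0.15.

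Line 5 had the lowest median in several role groups, but not in all. The median log2 ratio of the KMN members was 0.97 in line 5, 2.24 in line 7 and 1.66 in line 8. For the checkpoint members it was 1.43, 2.58 and 2.13, and for the passenger group 1.58, 3.19 and 2.74. The median of the 3 cohesin core members was highest in line 5, with 1.05, 0.78 and 0.34. By gene, RAD21 had 1.05, 1.23 and 2.07, STAG2 had 1.07, 0.78 and 0.34, and STAG1 had -0.50, -0.80 and -0.57. Corona members had a median of 0.94, 2.56 and 0.68, lowest in line 8. It is the value of DYNC1I1 in lines 5 and 7 and of ZW10 in line 8. The 5 corona members called higher were each lowest in line 5, while DYNC1I1, DYNLT3 and NDE1 were lowest in line 8. Cohesin loading and release factors had 0.27, 0.28 and 0.15. With 1 library per line, differences between lines were not tested.

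Other genes of cell division were given as whole lists. Condensin compacts mitotic chromosomes, and of its 8 genes 8 passed the test as higher and 7 were called, at a median log2 fold change of 2.01, with NCAPG2 at 2.43 and NCAPH at 2.12. Of 17 tested genes of spindle motors and assembly, 16 were called higher, at a median of 1.90, with KIF15 at 2.68 and KIF11 at 2.58. Of 16 tested cyclins, kinases and MuvB-FOXM1 factors, 11 were called higher, at a median of 1.62, with MYBL2 at 3.60 and CCNB1 at 3.54. The anaphase promoting complex is the ligase that starts anaphase. Of its 15 tested genes outside the members, 5 were called higher, at a median of 0.78, with UBE2C at 2.66 and ANAPC1 at 1.67. Limma called 0 of these genes lower, and voom called 6 of the 15 in either direction, where 10 had an unadjusted p under 0.05.

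Members lie on 19 chromosomes, with 13 on chromosome 3 and 7 on chromosome X. Of the 7 on chromosome X, ERCC6L was called higher and DYNLT3 lower. Some members are near each other. PLK1 and DCTN5 lie 9744 bases apart on the same strand, with log2 fold changes of 3.60 and -0.0047. KNTC1 rose by 2.02, and CLIP1, 77881 bases away on the opposite strand, had -0.96. ERCC6L had 1.77 and HDAC8, 90925 bases away, had -0.33. Another row of the table overlaps 46 of the 111 members, 36 of them on the opposite strand. Whether counting used the strand is not stated, so these values are less certain. Of the 53 members called higher, 37 overlap no other row.

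Counts also differ by annotation. Of 22 tested members with both terms, 15 were called higher and 0 lower, at a median log2 fold change of 1.89. With the cohesion term only, 16 of 29 were called higher and 0 lower, at a median of 1.10. With the kinetochore term only, 22 of 50 were called higher and 3 lower, at a median of 0.79. Voom called 16 of the 22, 18 of the 29 and 26 of the 50, and limma gave 18, 22 and 35 of them an unadjusted p under 0.05. Over all 12428 tested genes, voom called 5128, and 7325 had an unadjusted p under 0.05. The 6 nucleoporin rows left out by name were all called higher, at a median of 1.68, and SEH1L had 0.87 (adjusted p = 0.0117).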

How the data were processed

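The authors deposited FPKM values per gene for 18007 rows, from poly-A libraries read from both ends over 150 bp. The submitters' processing notes name HISAT2 2.1.0, Bowtie2 2.2.3, HTSeq 0.6.0 and the build Sscrofa11.1, without saying what each tool did. How fragments shared between genes were counted is not stated. Fragments were recovered from the FPKM steps, and values were whole fragments within 0.002 (or 3e-08 of the count, where larger) for 18007 rows (100%), with totals from 11010629 to 17836510 per library. Members were found by their ontology terms, and members and lists were chosen with earlier results of these data known.

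The 3 PEF and 3 piPSC libraries were compared with limma 3.58.1 in R 4.3.3 (lmFit, eBayes with a trend), unpaired and two-sided, on log2(FPKM + 1) for the 12428 genes whose mean FPKM reached 0.5, with Benjamini-Hochberg adjustment over all of them. Calls needed a change of 2-fold or more and an adjusted p under 0.05. Libraries are paired by line: deviations from the group means correlated across genes at 0.0921, 0.0946 and 0.0800 for the same line and from -0.121 to 0.0553 for other lines, so the line was taken as a replicate block in 1 alternative. The others were a pseudocount of 0.1, no filter, a mean FPKM of at least 1, rescaling to the median ratio or to equal sums of 1000000, no trend, voom on recovered fragments, and leaving out each library or line. Counts without the SEH1 row, without chromosome X, and with equal sums at the mean deposited sum were added after seeing the data.

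Named members were those called lower, the 10 largest increases, and the tested CENP-A, outer kinetochore, checkpoint, passenger and cohesin members. The other tested members with a listed role joined them in the alternatives after values were seen, and some further named genes were also chosen then. Lists other than the members' roles were SKA, condensin, anaphase promoting complex, spindle motors, G2/M factors, proliferation markers and cell type markers. Python 3.11.15, numpy 2.4.6, pandas 2.3.3, scipy 1.17.1 and matplotlib 3.10.9 were used, and the fit was tested on simulated data. The promoters are RefSeq sequences on Sscrofa11.1.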

Additional observations from a re-analysis of the deposited data

Results flagged for a closer look

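DYNC1I1, a dynein intermediate chain, went in opposite directions in lines made the same way. It had 0.588, 0.143 and 3.66 FPKM in PEF5, PEF7 and PEF8 and 2.05, 5.74 and 0.980 in piPSC5, piPSC7 and piPSC8. Its log2 ratio of piPSC to PEF was 2.56 in line 7 and -1.23 in line 8, with 0.94 in line 5. With 1 library per line, the difference was not tested. In the limma comparison of all 3 lines it had a log2 fold change of 0.76 (SE 0.65) and an adjusted p of 0.358. Without line 8 it was called higher, with 1.75 (adjusted p = 0.0384), and without line 7 it had -0.15 (adjusted p = 0.869), the lowest and highest adjusted p over 17 alternatives.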

How the results depend on the processing

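The direction of the members' counts was the same in every alternative tried. Under a pseudocount of 0.1 the median log2 fold change of the tested members was 1.41, with voom it was 1.39, and with equal sums at the mean deposited sum, added after seeing the data, it was 0.85. Members called lower numbered 5 with the median ratio, 6 with equal sums of 1000000, 5 with equal sums at the mean and 5 with voom. With no fold threshold they numbered 5 as deposited, and 10 with the median ratio or with either equal sum. Members at least 2-fold higher in all 3 line pairs, 37 as deposited, numbered 26 with the median ratio, 30 with equal sums of 1000000 and 47 with a pseudocount of 0.1. At 4-fold in place of 2-fold, 3 members were higher in all 3 line pairs. The cause was not tested for these, apart from the higher thresholds, which can only lower a count, and the lower ones, which can only raise it. Over fits that each left out 1 library or 1 line, members called higher ran from 41 to 57, members called lower from 2 to 4 and the median from 0.96 to 1.21. In these fits 13.8% to 21.1% of all tested genes were called higher. With 1 line left out, members higher in all remaining pairs ran from 38 to 49, a count that leaving out a pair cannot lower. Genes called among all tested ran from 2996, without line 5, to 4639. The difference in the log2 ratio of STAG1 to STAG2 ran from -1.73 to -1.36, and that of PDS5A to PDS5B from 0.33 to 0.85.

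With both rescalings, ESCO1 turned from 0.17 to -0.054 (median ratio) and -0.11 (equal sums), and WAPL from 0.11 to -0.15 and -0.21. CENPC turned from 0.23 to -0.0053 and -0.058, and DYNC1LI1 from 0.06 to -0.20 and -0.26. PDS5B turned from 0.24 to -0.049 with equal sums. Over fits that each left out 1 library or 1 line, DYNC1LI1 ran from -0.11 to 0.16, NDE1 from -0.68 to 0.013 and DYNC1I1 from -0.15 to 1.75. Of these, DYNC1I1 alone passed the test in an alternative, without line 8, and the cause was not tested.

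With the line as a replicate block, 53 members were called higher and 3 lower, and 4485 genes in all. Within lines, the difference in the ratio was -1.51 for STAG1 to STAG2 (exact sign-flip p = 0.25) and 0.61 for PDS5A to PDS5B (p = 0.5). With 3 lines, 0.25 is the smallest p that this two-sided test can give. Among the 101 tested members, the block took NSL1 (adjusted p = 0.0651), CENPM (0.0585), CENPP (0.0731), ZW10 (0.0670) and NUDCD2 (0.0599) over the threshold and STAG1 under it (0.0472), and changed no other call. Of 1104 values of 65 named members under alternatives, 965 kept their direction and side of the threshold, 116 no longer passed, 9 newly passed and 14 changed sign. The log2 fold change moved by over 1.5 times in at least 1 alternative for 33 of the 65, of which 13 had not passed.

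Fits without a line compare 2 libraries with 2 and assume a common spread. Depth limits the members under the filter, where counts of 0 to 40 fragments cannot show a moderate difference. The piPSC lines were picked as colonies and grown on feeder cells, so culture, picking and feeder cells cannot be told apart from reprogramming. Which cell cycle stages the cells were in was not measured.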
